A study of Mus musculus with 12 samples.

Results

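The 10 genes described here belong to arginine, nitric oxide, polyamine and itaconate metabolism, and their transcripts were followed in cultured mouse microglia, the resident macrophages of the brain. They were taken by gene symbol from the deposited expression table: Arg1, Arg2, Nos2, Irg1 (now Acod1), Cpd, Slc7a2, Ass1, Gch1, Odc1 and Sat1. The table lists 9 of these 10 symbols among its 14541 genes, and Ass1 is not analysed here. Of those 9, 8 entered the statistical model, which took the 11242 genes that reached 1 FPKM or more in 4 or more libraries. Nos2 fell below this filter, and Arg1 passed it through its Hevin libraries and the Media library numbered 4. The genes were chosen by their roles and by their measured differences of Hevin and of LPS from Media, known from these same libraries. Arg1, Cpd and Irg1 had stood out there by size of change, so the differences of all 10 symbols are described here without p-values. Called means an adjusted p under 0.05, and for these genes it is a description and not a test.

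The microglia were wild-type cells bound to magnetic beads against CD11b, a surface protein of myeloid cells, and came from forebrains of pups at postnatal days 7 to 9. In the Hevin group the wells of 40000 to 80000 cells received 500 nM recombinant Hevin, a protein that astrocytes secrete. In the LPS group they received 50 ng/mL lipopolysaccharide, a bacterial cell wall component sensed by Toll-like receptor 4. In the Media group they received only more growth medium. All were collected after 6 h, and each group had 4 poly(A) RNA libraries, numbered 1 to 4. Libraries of the same number are joined by their column names and deviated together, so they are set side by side as pairs. The deviations alone do not single out the pairs of number 4. The main fit left this pairing out, and an alternative fit held the number as a block. Whether the 4 libraries stand for different animals or cultures is not stated in the labels, and every test measures only the spread between these libraries. Expression is given as FPKM, fragments scaled to gene length and library size, which can be set side by side between genes.

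Depth, counted as whole reads recovered from the FPKM values of the listed genes, was 21389784 to 27361665 in Hevin, 19395973 to 27263115 in LPS and 18343996 to 25910349 in Media. All 12 microglia markers on a fixed list were present in all groups, and their FPKM summed to 1475 to 2087 in Hevin, 740 to 1056 in LPS and 853 to 1118 in Media. The 3 libraries numbered 2 stood apart, because 9 listed neutrophil or monocyte markers summed to 1968 to 2116 FPKM in them, against 42.2 to 105 in the other 9. Of 8 astrocyte markers, Gja1 carried most of the sum, which was 21.9 to 47.5 FPKM in Hevin, 114 to 236 in LPS and 51.0 to 88.1 in Media. Border macrophage markers summed to 231 to 273 FPKM in Hevin, 283 to 360 in LPS and 259 to 329 in Media. The highest of them, Mrc1, averaged 71.7 FPKM in Hevin, 178 in LPS and 161 in Media. Of these 8 markers, 2 were called higher in Hevin than in Media and 1 lower, beside 4.27% and 3.10% of all genes. Their median log2 fold change in Hevin against Media was 0.16, so the lower sum in Hevin does not hold for the markers as a set. The sums of 8 endothelial or pericyte markers were lowest in number 1 and highest in number 3 of every group and spanned 31.4 to 157 FPKM in Hevin, 29.2 to 173 in LPS and 29.2 to 151 in Media. Neuron markers summed to 3.06 to 18.9 FPKM in Hevin, 3.28 to 23.9 in LPS and 2.87 to 17.3 in Media. Oligodendrocyte markers summed to 10.6 to 12.2 FPKM in Hevin, 7.58 to 10.2 in LPS and 10.5 to 13.5 in Media. The part of these differences in the results was not tested. In bulk RNA fewer cells of a type and less RNA per cell cannot be told apart.

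Arginine is the shared substrate of several competing enzymes. Arginases split it into urea and ornithine, from which ornithine decarboxylase makes putrescine, the first polyamine, while inducible nitric oxide synthase turns it into nitric oxide and citrulline. Macrophages are widely described by which of these routes they express. Itaconate, a metabolite made from the citrate cycle intermediate cis-aconitate by the enzyme that Irg1 encodes, restrains succinate dehydrogenase and inflammatory signalling in activated macrophages.

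RefSeq promoter sequences of the GRCm38.p6 build, the 250 bases before the RefSeq start site, were found for 6 of the 10 symbols. These were Irg1, Cpd, Ass1, Gch1, Odc1 and Sat1. Gene positions below are from the GENCODE annotation, whose starts differ for some genes. The windows of Irg1, Cpd, Ass1 and Odc1 reach into the GENCODE gene spans. The 4 printed here belong to genes with unlike patterns across the groups. Irg1 and Gch1 were called higher against Media in LPS and not in Hevin, Cpd was called higher in both treatments, and Odc1 was lower in Hevin than in Media in every pair. They are given 5′ to 3′ on the strand of the gene, with matches to the searched motifs in capitals. The promoter of Irg1 lies at chr14:103046762-103047011 on the plus strand, that of Cpd at chr11:76847009-76847258 on the minus strand, that of Gch1 at chr14:47189414-47189663 on the minus strand and that of Odc1 at chr12:17544623-17544872 on the plus strand.
Irg1: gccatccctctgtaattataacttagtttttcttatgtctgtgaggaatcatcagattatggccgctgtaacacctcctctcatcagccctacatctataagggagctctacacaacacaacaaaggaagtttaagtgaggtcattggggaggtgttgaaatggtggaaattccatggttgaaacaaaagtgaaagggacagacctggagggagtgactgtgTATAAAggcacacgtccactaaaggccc
Cpd: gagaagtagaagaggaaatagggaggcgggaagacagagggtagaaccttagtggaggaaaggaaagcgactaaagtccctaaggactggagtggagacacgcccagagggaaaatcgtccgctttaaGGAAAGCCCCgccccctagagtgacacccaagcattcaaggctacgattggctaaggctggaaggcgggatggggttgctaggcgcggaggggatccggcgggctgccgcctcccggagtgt
Gch1: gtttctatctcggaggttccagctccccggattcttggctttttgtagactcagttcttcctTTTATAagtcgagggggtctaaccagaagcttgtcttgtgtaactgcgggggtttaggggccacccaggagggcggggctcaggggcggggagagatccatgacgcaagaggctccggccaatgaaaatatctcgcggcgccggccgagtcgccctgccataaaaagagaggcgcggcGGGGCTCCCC
Odc1: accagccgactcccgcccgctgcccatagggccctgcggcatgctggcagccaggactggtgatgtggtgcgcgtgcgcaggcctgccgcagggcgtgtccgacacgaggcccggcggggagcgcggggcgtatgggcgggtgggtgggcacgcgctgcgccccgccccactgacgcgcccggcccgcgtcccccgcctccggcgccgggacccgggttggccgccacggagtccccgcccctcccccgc
Both strands of each were searched for the NF-kB motif, the interferon-stimulated response element (a pair of GAAA words 2 bases apart), TTCNNNGAA of STAT sites, TGANTCA of AP-1, TGACGTCA of cAMP-response elements, the E-box CACGTG and the TATA box TATAAA. The Irg1 promoter held TATAAA at 28 to 23 bases before the start, and 12.4% of all 32851 RefSeq promoters in the table hold this word in a window of the same length. Cpd held an NF-kB match on the opposite strand, read as GGAAAGCCCC, at 122 to 113 bases before the start. Gch1 held one on the strand of the gene, GGGGCTCCCC, at 10 to 1 bases before the start. The share of all promoters with an NF-kB match was 3.90%. Gch1 also held the TATA word on the opposite strand, read as TTTATA, at 188 to 183 bases before the start, while Odc1 held none of the 7 motifs and was 80.0% G and C. Of the other 2, Ass1 held an E-box, present in 6.02% of all promoters, and Sat1 held no match. The other searched words were present in 2.98% (the interferon-stimulated response element), 7.02% (TTCNNNGAA), 6.75% (TGANTCA) and 1.55% (TGACGTCA) of promoters.

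The arginase genes separated the treatments. Arg1, the cytosolic arginase gene on chromosome 10 (24915221 to 24927484, minus strand), was higher in Hevin than in LPS and in Media. Arg1 stood at 12.97, 5.83, 4.93 and 12.7 FPKM in Hevin libraries 1 to 4, at 0.627, 0.289, 0.443 and 0.901 FPKM in LPS and at 0.563, 0.489, 0.548 and 1.03 FPKM in Media. The Hevin libraries lay above all others without overlap, and LPS and Media overlapped. In reads these were 532, 198, 231 and 528 in Hevin, 19, 9, 16 and 22 in LPS and 22, 14, 22 and 43 in Media, so the values in LPS and Media rest on few reads. The mean of 9.10 ± 4.31 FPKM in Hevin was 13.8 times the 0.658 ± 0.251 FPKM in Media (SD, n = 4 each), and the pairs gave ratios of 23.0, 11.9, 9.01 and 12.3. On the log2(FPKM + 1) scale of the model, which understates the change of low genes, Arg1 rose in Hevin by 2.51 ± 0.27 (SE). In LPS its log2 fold change against Media was -0.09 ± 0.27, not called, with 0.565 ± 0.263 FPKM in LPS. The Hevin library with the high neutrophil and monocyte marker sum, that numbered 2, had 5.83 FPKM of Arg1. Leaving out all 3 libraries numbered 2, the log2 fold change of Arg1 in Hevin against Media was 2.62. The part of neutrophils or monocytes in the Arg1 values was not tested.

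Arg2, the gene of the mitochondrial arginase on chromosome 12 (79130777 to 79156301, plus strand), had the other order. It stood at 3.33, 4.61, 4.58 and 4.43 FPKM in Hevin, at 25.1, 19.6, 28.4 and 39.8 FPKM in LPS and at 2.67, 2.95, 1.82 and 1.45 FPKM in Media. All 3 groups were apart from each other without overlap, with LPS highest. Arg2 rose in LPS by 3.16 ± 0.21 on the log2 scale, and its mean of 28.2 ± 8.54 FPKM in LPS was 12.7 times the 2.22 ± 0.704 FPKM in Media. In Hevin, Arg2 averaged 4.24 ± 0.611 FPKM, with a log2 fold change against Media of 0.72 ± 0.21 that was not called. With the replicate number as a block it was called, with the same SE of 0.21 after rounding, and so it was without the LPS library numbered 2, the LPS library numbered 4 or the Media library numbered 2. It was also called with a pseudocount of 0.1, a filter at 5 FPKM, only both groups compared, no scaling factors or limma-voom with the block, so 9 of 25 alternatives called it. Arg2 exons overlap those of Gm48780 and Vti1b on the opposite strand, and whether counting used strand is not given in the sources used here, so reads of these genes may be shared.

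Per kilobase, the balance between both arginase genes differed between groups in every library. The ratio of Arg1 FPKM to Arg2 FPKM was 3.90, 1.27, 1.08 and 2.86 in Hevin, 0.025, 0.015, 0.016 and 0.023 in LPS and 0.211, 0.166, 0.302 and 0.711 in Media. Arg1 was thus the higher of the pair in all Hevin libraries and the lower in all LPS and Media libraries. The sum of both genes was 16.3, 10.4, 9.52 and 17.1 FPKM in Hevin, 25.7, 19.9, 28.9 and 40.7 FPKM in LPS and 3.23, 3.44, 2.36 and 2.48 FPKM in Media. Both treatments were thus above Media in summed arginase expression. In Hevin the larger part was Arg1, by little in the libraries numbered 2 and 3, and in LPS almost all was Arg2.

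**Figure D1:**
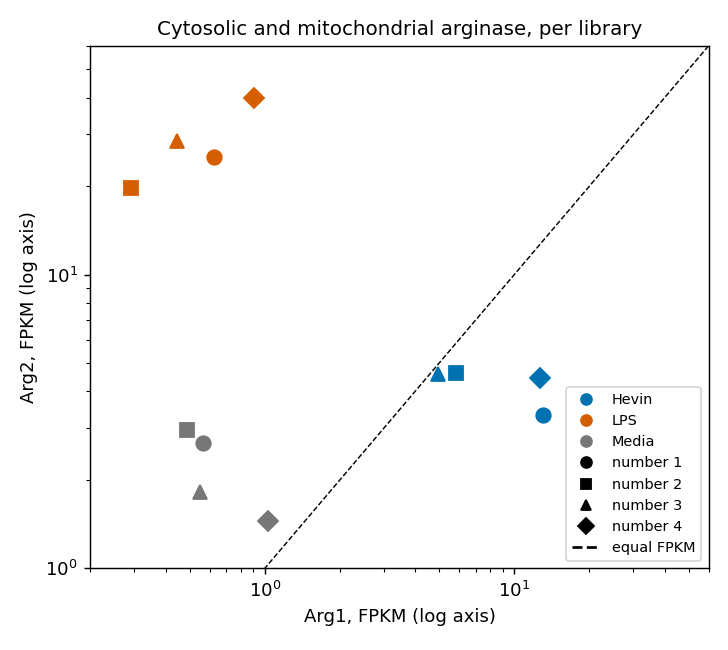
Levels of the 2 arginase genes in each of the 12 libraries, in FPKM on log axes (Arg1 across, Arg2 up), coloured by group, with a shape per library number and a dashed line at equal FPKM. Arg1 exceeds Arg2 in all 4 Hevin libraries, with ratios of 1.08 to 3.90, and lies below it in all LPS and Media libraries.

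Nitric oxide synthesis was represented by the synthase gene, an arginine carrier and a cofactor enzyme. Nos2, the gene of inducible nitric oxide synthase on chromosome 11 (78920787 to 78960254, plus strand), was low in all groups at 6 h. It stood at 0.117, 0.109, 0.490 and 0.329 FPKM in Hevin, at 1.54, 0.833, 3.75 and 4.75 FPKM in LPS and at 0.114, 0.0776, 0.415 and 0.408 FPKM in Media. Every LPS library was above all Hevin and Media libraries, which overlapped each other. The reads behind them were 13, 10, 62 and 37 in Hevin, 126, 70, 366 and 313 in LPS and 12, 6, 45 and 46 in Media. The mean of 2.72 ± 1.84 FPKM in LPS was 10.7 times the 0.254 ± 0.183 FPKM in Media, and the pairs gave ratios of 13.6, 10.7, 9.04 and 11.6. In Hevin the mean was 0.261 ± 0.183 FPKM, and its ratios to the paired Media libraries were 1.03, 1.41, 1.18 and 0.805. With 3 LPS libraries at 1 FPKM or more, Nos2 missed the filter. In a fit without the filter its log2 fold change was 0.01 in Hevin against Media and 1.43 ± 0.30 in LPS against Media, and the second was called. Within each group Nos2 was higher in the libraries numbered 3 and 4 than in those numbered 1 and 2.

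Slc7a2, on chromosome 8 (40862396 to 40922308, plus strand), encodes a cationic amino acid transporter that carries arginine into macrophages. It stood at 1.22, 1.43, 3.43 and 2.44 FPKM in Hevin, at 8.31, 13.6, 22.7 and 26.0 FPKM in LPS and at 0.716, 0.860, 1.27 and 1.06 FPKM in Media. LPS was above both other groups without overlap, and Slc7a2 rose there by 3.13 ± 0.31, to 18.1 times the Media mean. Hevin was above Media in all 4 pairs, with ratios of 1.71, 1.66, 2.69 and 2.298, but the groups overlapped. The log2 fold change in Hevin of 0.61 ± 0.31 was not called without the block and was called with it, where the SE was 0.17. Slc7a2 overlaps Gm26584 on the opposite strand.

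Gch1, on chromosome 14 (47153895 to 47189413, minus strand), encodes GTP cyclohydrolase 1, the first enzyme in the synthesis of tetrahydrobiopterin, a cofactor of nitric oxide synthases. Gch1 stood at 9.43, 8.03, 11.7 and 13.6 FPKM in Hevin, at 20.04, 20.8, 25.3 and 22.1 FPKM in LPS and at 8.35, 7.49, 11.3 and 10.2 FPKM in Media. It rose in LPS by 1.17 ± 0.16 and to 2.37 times the Media mean, without overlap. In Hevin its log2 fold change was 0.17 ± 0.16, not called, and the groups overlapped.

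Irg1, on chromosome 14 (103046977 to 103056573, plus strand), encodes aconitate decarboxylase, which makes itaconate. It stood at 86.8, 44.9, 112 and 83.3 FPKM in Hevin, at 2031, 1776, 2141 and 2372 FPKM in LPS and at 77.6, 46.1, 115 and 83.8 FPKM in Media. The LPS libraries lay far above the others, while Hevin and Media interleaved library by library. Irg1 rose in LPS by 4.74 ± 0.29, and the mean of 2080.0 ± 248 FPKM was 25.8 times the 80.6 ± 28.2 FPKM in Media. By mean level Irg1 ranked 626 among the listed genes in Hevin, 14 in LPS and 659 in Media. In Hevin the mean was 81.8 ± 27.9 FPKM and the log2 fold change 0.02 ± 0.29 was not called. Its ratios to the paired Media libraries were 1.12, 0.974, 0.978 and 0.994, and with the replicate block the SE was 0.14. The library numbered 2 had the lowest Irg1 of each group.

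In the fit without the block, Cpd was the only one of the 8 tested genes called higher in both treatments. It lies on chromosome 11 (76778424 to 76847018, minus strand) and encodes carboxypeptidase D, a membrane enzyme that releases arginine and lysine from the ends of peptides. Cpd stood at 142, 123, 137 and 126 FPKM in Hevin, at 63.7, 73.6, 79.3 and 83.4 FPKM in LPS and at 24.0, 23.5, 29.0 and 25.4 FPKM in Media. The 3 groups did not overlap, and libraries within each differed little. Cpd rose in Hevin by 2.33 ± 0.10, with 132 ± 9.01 FPKM in Hevin at 5.19 times the 25.5 ± 2.48 FPKM in Media. It rose in LPS by 1.52 ± 0.10, to 75.0 ± 8.52 FPKM and 2.95 times Media. In Hevin the paired ratios to Media were 5.94, 5.25, 4.73 and 4.97, and in LPS they were 2.66, 3.14, 2.74 and 3.28. Without the 3 libraries numbered 2 the log2 fold change of Cpd in Hevin was also 2.33.

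**Figure D2:**
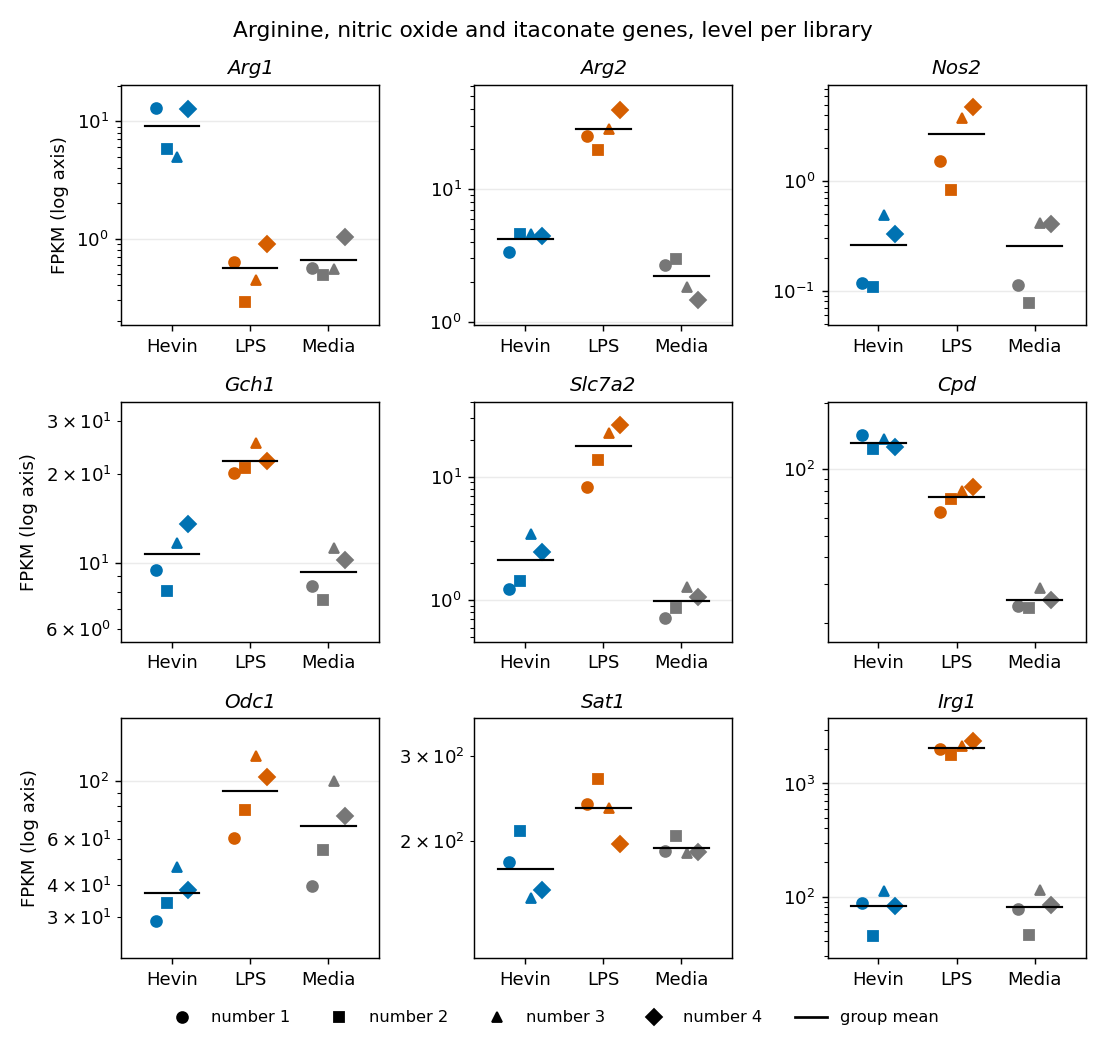
FPKM of the 9 listed genes in each library, one panel per gene, on log axes, with the groups Hevin, LPS and Media from left to right, a shape per library number and a line at the group mean. Arg1 is highest in the Hevin libraries, Irg1, Arg2, Slc7a2, Nos2 and Gch1 are highest in LPS, and Cpd is high in both treatments.

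Of the polyamine genes, neither was called against Media in the fit of all 12 libraries without the block. Odc1, on chromosome 12 (17544794 to 17551505, plus strand), encodes ornithine decarboxylase. It stood at 29.1, 34.0, 46.9 and 38.1 FPKM in Hevin, at 60.3, 77.7, 125 and 104 FPKM in LPS and at 39.7, 54.3, 100.3 and 73.3 FPKM in Media. Each number kept the order LPS above Media above Hevin, though both treatments overlapped Media, and numbers 3 and 4 were higher than 1 and 2 in every group. The paired ratios to Media were 0.733, 0.625, 0.467 and 0.520 in Hevin and 1.52, 1.43, 1.24 and 1.41 in LPS. The log2 fold change was -0.78 ± 0.28 in Hevin and 0.48 ± 0.28 in LPS, and neither was called in that fit. With the block, whose SE was 0.09 in both, Odc1 was called lower in Hevin and higher in LPS. The Hevin difference was also called without the Media library numbered 1.

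Sat1, on the X chromosome (155213132 to 155216449, minus strand), encodes spermidine/spermine N1-acetyltransferase, which marks polyamines for breakdown and export. It was the highest of the 9 genes in Hevin and in Media. Sat1 stood at 181, 209, 152 and 158 FPKM in Hevin, at 238, 268, 234 and 197 FPKM in LPS and at 191, 204, 188 and 189 FPKM in Media. Both treatments overlapped Media. Its log2 fold change was -0.15 ± 0.11 in Hevin, not called, and 0.27 ± 0.11 in LPS, called only with the block, with limma-voom and the block or without the LPS library numbered 4. The LPS value turned to -0.18 under quantile normalization and to -0.059 without the library scaling factors.

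In Hevin against Media, 2 of the 8 tested genes were called higher and 0 lower, against 4.27% higher and 3.10% lower of all 11242 tested genes. The libraries of both groups did not overlap for 3 higher and 0 lower, against 9.05% and 7.55% of all genes. With the replicate block these were 4 higher and 1 lower, and 10.8% and 10.6% of all genes. In LPS against Media, 5 were called higher and 0 lower, against 13.2% and 12.6% of all genes. The same 5 did not overlap between the groups, against 13.3% higher and 12.3% lower of all genes. With the block 7 were higher, beside 21.5% of all genes, and 0 lower, beside 22.2%. The genes were chosen with these differences known, so nothing is read from their counts against the background. The deposited values hold scaling factors that were 0.804 to 0.897 in LPS libraries and 1.02 to 1.16 in the others. Setting the values back to library totals shifted the median log2 fold change over all genes by -0.27 in LPS against Media, by 0.30 in Hevin against LPS and by 0.03 in Hevin against Media. The calls over all genes in LPS against Media were then 728 higher and 5007 lower, in place of 1484 and 1413. The 5 genes called higher in LPS stayed called in every alternative tried.

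Hevin and LPS were also set against each other, with the same libraries as above. All 8 tested genes were called, 2 higher and 6 lower in Hevin, with and without the block, against 22.0% higher and 19.7% lower of all genes without the block and 29.9% and 28.0% with it. The groups did not overlap for 2 higher and 5 lower, against 20.0% and 17.5% of all genes. The genes were chosen with the differences of both treatments from Media known, so nothing is read from these counts either. Without the scaling factors the calls over all genes in Hevin against LPS were 5440 higher and 963 lower, in place of 2470 and 2215. Arg1 was higher in Hevin by 2.598 ± 0.27 on the log2 scale, with paired ratios to LPS of 20.7, 20.2, 11.1 and 14.1. Cpd was higher by 0.81 ± 0.10, with paired ratios of 2.24, 1.67, 1.73 and 1.52. Irg1 differed by -4.72 ± 0.29, Slc7a2 by -2.51 ± 0.31, Arg2 by -2.44 ± 0.21, Odc1 by -1.25 ± 0.28 and Gch1 by -1.001 ± 0.16, all lower in Hevin. Sat1 differed by -0.42 ± 0.11, with overlapping groups. Its direction turned to 0.14 under quantile normalization and its call ended without scaling factors. Nos2, outside the filter, did not overlap between Hevin and LPS either, with all Hevin libraries lower.

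**Figure D3:**
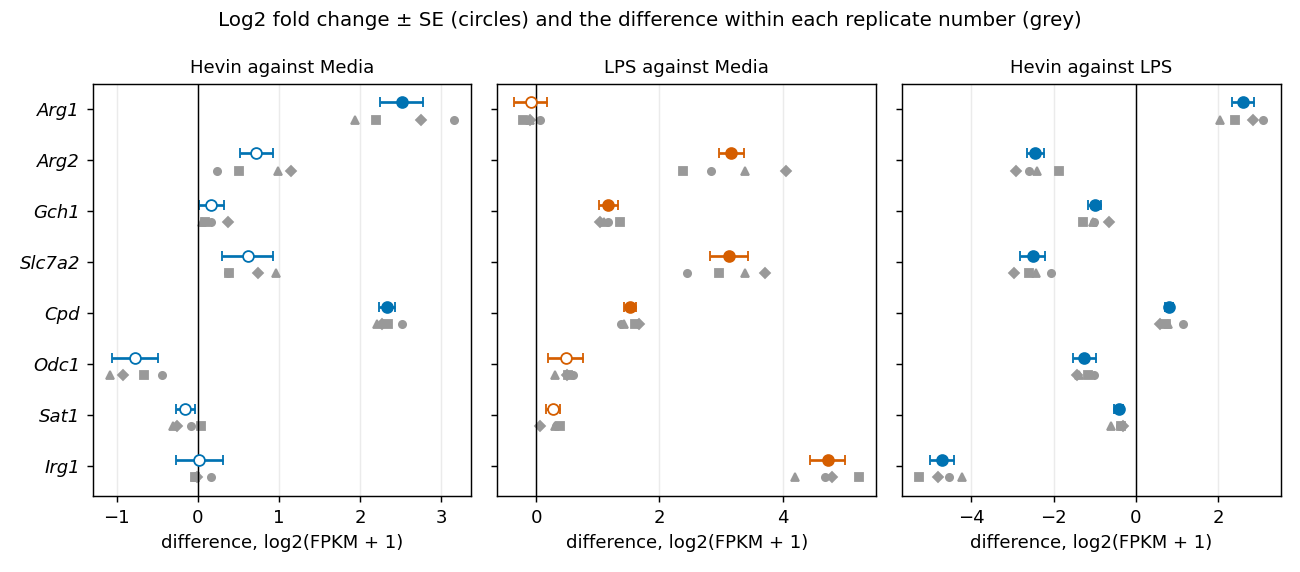
Log2 fold changes of the tested genes on the log2(FPKM + 1) scale in Hevin against Media, LPS against Media and Hevin against LPS, with circles for the model estimate (filled where called), bars for its SE and grey symbols for the difference within each library number. Arg1 and Cpd are higher in Hevin than in LPS, and the other 6 are lower.

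The order of levels within a group changed with treatment. In Hevin the order by mean FPKM was Sat1, Cpd, Irg1, Odc1, Gch1, Arg1, Arg2, Slc7a2 and Nos2, and the library ranges overlapped between Irg1 and Odc1, between Gch1 and Arg1 and between Arg2 and Slc7a2. In LPS it was Irg1, Sat1, Odc1, Cpd, Arg2, Gch1, Slc7a2, Nos2 and Arg1, with overlap between Odc1 and Cpd, among Arg2, Gch1 and Slc7a2, and between Nos2 and Arg1. In Media it was Sat1, Irg1, Odc1, Cpd, Gch1, Arg2, Slc7a2, Arg1 and Nos2, with overlap between Irg1 and Odc1 and between Slc7a2 and Arg1. By rank among all listed genes, Cpd was at 318 in Hevin, 970 in LPS and 2634 in Media, and Arg1 at 5801 in Hevin, 11806 in LPS and 11531 in Media.

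The rest of the pathway was followed through 6 lists by function, of 96 genes in all, 83 listed and 70 tested, none of them among the genes above. The lists were chosen with earlier results of these data known, so their p-values are not those of an independent test. In Hevin against Media, 5 of the 70 were called higher and 2 lower, beside 4.27% and 3.10% of all genes, with a median log2 fold change of -0.0041 over the lists, whose own medians ran between -0.13 (polyamine genes) and 0.090 (nitric oxide and tetrahydrobiopterin genes), beside 0.00020 over all genes. With the block the counts were 8 and 7, beside 10.8% and 10.6% of all genes. The largest of these changes was in Gatm, whose enzyme moves the amidino group of arginine to glycine in creatine synthesis. Gatm averaged 33.3 ± 4.69 FPKM in Hevin, 17.0 ± 2.48 in LPS and 12.4 ± 0.600 in Media, and rose in Hevin by 1.34 ± 0.12 (limma adjusted p = 3.79e-05). It was the one gene called of 8 tested in the list of urea, ornithine and proline enzymes, where the block added 1 lower.

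Beside the list counts that follow, 4.27% of all genes were called higher in Hevin than in Media and 3.10% lower. With the block these shares were 10.8% and 10.6%. Among 8 tested transport genes, 1 rose and 2 fell in Hevin, with 2 higher without the LPS library numbered 3 and 2 higher and 3 lower with the block. Slc7a8, a neutral amino acid transporter, rose by 0.83 ± 0.14 (limma adjusted p = 0.00319), with 90.6 ± 18.0 FPKM in Hevin and 50.1 ± 5.87 in Media. Slc7a5, a large neutral amino acid transporter, fell by 0.64 ± 0.11 on the log2 scale (limma adjusted p = 0.00386), with 60.5 ± 4.78 FPKM in Hevin and 95.0 ± 8.26 in Media. Slc7a1, the widely expressed cationic amino acid transporter related to Slc7a2, fell by 0.52 ± 0.10 (limma adjusted p = 0.00837), with 41.0 ± 3.44 FPKM in Hevin and 59.4 ± 5.43 in Media. Of 5 carboxypeptidases and convertases, only Furin, a protease that cuts after basic residues, rose in Hevin, by 0.69 ± 0.14 (limma adjusted p = 0.00871). Of 24 citrate cycle genes, only Idh1, cytosolic isocitrate dehydrogenase, rose in Hevin, by 0.50 ± 0.08 (limma adjusted p = 0.00296), and with the block 2 were called higher. Of 12 polyamine genes, only Atp13a2, a lysosomal polyamine exporter, was called, at 0.52 ± 0.11 (limma adjusted p = 0.0155), while the block added 2 lower. The Atp13a2 call ended without the Media library numbered 3 (adjusted p = 0.0571), and over its alternatives the adjusted p ran between 9.08e-04 and 0.0571. Of 13 genes of nitric oxide and tetrahydrobiopterin, 0 were called, against 1 higher and 1 lower with the block and 1 higher without the LPS library numbered 1 or 2.

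In LPS against Media, 4 of the 70 pathway genes were called higher and 11 lower, beside 13.2% and 12.6% of all genes, with a median log2 fold change of -0.10 over the lists and -0.02 over all genes. The medians of single lists ran between -0.25 (urea, ornithine and proline genes) and 0.25 (carboxypeptidases and convertases). With the block these were 9 and 17, beside 21.5% and 22.2% of all genes, and without scaling factors 0 and 36. The higher count dropped to 2 without the LPS library numbered 2 or the Media library numbered 3, and the lower count to 6 without the LPS library numbered 4 and to 7 without the Media library numbered 4. Of the 24 citrate cycle genes, 4 fell and 0 rose. Among these were Slc25a11, the mitochondrial oxoglutarate carrier, at -0.51 ± 0.11 on the log2 scale (limma adjusted p = 0.00475), the mitochondrial isocitrate dehydrogenase gene Idh2, at -0.51 ± 0.14 (limma adjusted p = 0.0177), and Idh3g, a subunit of the NAD-dependent isocitrate dehydrogenase, at -0.36 ± 0.09 (limma adjusted p = 0.0102). Of the 13 nitric oxide and tetrahydrobiopterin genes, 3 fell and 0 rose, and 1 was called lower without the LPS library numbered 3 or 4. The largest fall was in Spr, whose enzyme makes the last step to tetrahydrobiopterin, with 2.97 ± 0.685 FPKM in LPS and 5.87 ± 1.36 in Media (-0.78 ± 0.16, limma adjusted p = 0.00453). Of the 12 polyamine genes, 0 were called higher and 2 lower in LPS, against 2 and 3 with the block. The lower count was 1 to 2 on leaving out each library in turn. Atp13a2 fell in LPS by 0.84 ± 0.11 on the log2 scale (limma adjusted p = 2.36e-04), with 2.57 ± 0.373 FPKM in LPS and 5.40 ± 0.442 in Media.

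Beside the list counts that follow, 13.2% of all genes were called higher in LPS than in Media and 12.6% lower. With the block these shares were 21.5% and 22.2%. Of the 8 transport genes, 2 were called higher in LPS and 0 lower, against 4 and 1 with the block and 1 lower without the LPS library numbered 2. Slc7a7, a subunit of an exporter of cationic amino acids, was higher by 0.48 ± 0.12 (limma adjusted p = 0.0138). This call was lost without scaling factors (adjusted p = 0.218), within a range of 0.000748 to 0.218 over its alternatives. Slc3a2, the heavy chain that several of these transporters share, was higher by 0.29 ± 0.07 (limma adjusted p = 0.0114), but its direction turned under quantile normalization, to -0.48, and without scaling factors, to -0.042. Gatm, at 0.41 ± 0.12 (limma adjusted p = 0.0256), was the only gene of its list called higher in LPS, and 2 were called lower. The lower count was 4 with the block, 1 without the LPS library numbered 2, and 0 without the LPS library numbered 4 or the Media library numbered 1 or 4. The call of Gatm ended on leaving out the LPS library numbered 2, 3 or 4 or the Media library numbered 1, 2 or 3, and over all alternatives its adjusted p ran between 0.00535 and 0.521. Furin, at 0.46 ± 0.14 (limma adjusted p = 0.0276), was the only called gene of the 5 carboxypeptidases and convertases, of which 2 were called higher with the block or without the Hevin library numbered 2 or 3 or the LPS library numbered 4. The call of Furin ended without the LPS library numbered 1 or 2 or the Media library numbered 3 or 4. Its adjusted p ran between 3.00e-04 and 0.344 over the alternatives.

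In Hevin against LPS, 15 pathway genes were called higher and 8 lower, beside 22.0% and 19.7% of all genes, with a median log2 fold change of 0.05 over the lists and 0.02 over all genes. Single lists had medians between -0.27 (carboxypeptidases and convertases) and 0.27 (urea, ornithine and proline genes). With the block the pathway counts were 22 and 13, beside 29.9% and 28.0% of all genes, and without scaling factors 38 and 1. The lower count was 5 without the Hevin library numbered 1, 3 or 4 or the LPS library numbered 2. Of the 24 citrate cycle genes, 4 were higher in Hevin and 0 lower, and 8 were higher with the block. Idh1 averaged 31.9 ± 2.36 FPKM in Hevin and 17.5 ± 1.34 in LPS, a difference of 0.83 ± 0.08 (limma adjusted p = 1.17e-05). Idh2 averaged 17.0 ± 1.75 FPKM in Hevin and 8.83 ± 1.77 in LPS, a difference of 0.89 ± 0.14 (limma adjusted p = 3.60e-04). Of the 13 nitric oxide and tetrahydrobiopterin genes, 4 were higher and 0 lower. Spr averaged 6.37 ± 0.470 FPKM in Hevin and 2.97 ± 0.685 in LPS (0.91 ± 0.16, limma adjusted p = 0.00102). Ddah2, whose enzyme family breaks down methylated arginines that inhibit nitric oxide synthases, averaged 21.0 ± 1.45 FPKM in Hevin and 14.2 ± 3.28 in LPS (0.56 ± 0.14, limma adjusted p = 0.00641).

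Beside the list counts that follow, 22.0% of all genes were called higher in Hevin than in LPS and 19.7% lower. With the block these shares were 29.9% and 28.0%. Of the 12 polyamine genes, 2 were higher and 2 lower in Hevin than in LPS. The lower count was 6 with the block, 1 without the Hevin library numbered 1, 2 or 3 or the LPS library numbered 4, and 0 without the LPS library numbered 2. Atp13a2 had the largest difference of all 70 genes, 1.36 ± 0.11 (limma adjusted p = 2.71e-06), with 8.21 ± 1.22 FPKM in Hevin and 2.57 ± 0.373 in LPS. Paox, a polyamine oxidase, differed by 0.67 ± 0.15 (limma adjusted p = 0.00390), at a low level of 1.19 ± 0.213 FPKM in Hevin and 0.383 ± 0.166 in LPS. No LPS library of Paox was above 0.533 FPKM, so it passed the filter of 1 FPKM only through Hevin and Media libraries. Of the 8 urea, ornithine and proline genes, 4 were higher and 1 lower, and Gatm led them with 0.93 ± 0.12 (limma adjusted p = 8.39e-05). The higher count was 2 without the Hevin library numbered 3 or 4 or the LPS library numbered 1 or 2, and the lower count was 0 without the Hevin library numbered 3 or 4 or the LPS library numbered 1. Of the 8 transport genes, 1 was higher and 4 lower. Slc7a1 was lower in Hevin, with 41.0 ± 3.44 FPKM in Hevin and 67.2 ± 8.59 in LPS (-0.70 ± 0.10, limma adjusted p = 2.35e-04). Of the 5 carboxypeptidases and convertases, 0 were higher and 1 lower, against 1 and 2 with the block. The lower gene was Cpxm1, of the carboxypeptidase family, at -0.43 ± 0.16 (limma adjusted p = 0.0437), and its call was lost in 14 of 24 alternatives, with adjusted p between 0.00455 and 0.303. These included leaving out the Hevin library numbered 1, 2 or 4, the LPS library numbered 1, 2 or 3 or the Media library numbered 1, 2 or 4.

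**Figure D4:**
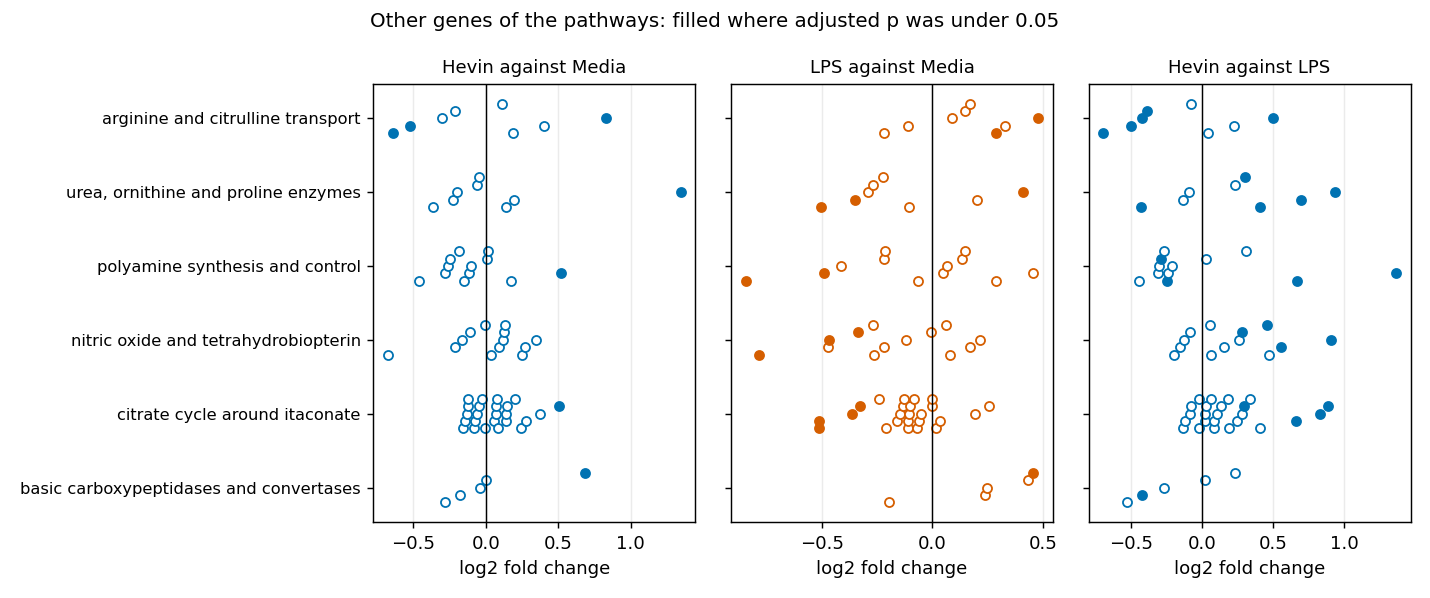
Log2 fold changes of the tested genes of the 6 pathway lists in the 3 comparisons, on the log2(FPKM + 1) scale, one point per gene, filled where the limma adjusted p was under 0.05. Gatm in Hevin against Media (1.34) and Atp13a2 in Hevin against LPS (1.36) have the largest values.

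The genes whose pattern over the 12 libraries was most like that of 4 of the members were found by Pearson's correlation of log2(FPKM + 1), given as a description, since all genes share the same libraries and scaling. For Arg1 these were Tgfbi (r = 0.972), Cxcl14 (r = 0.971) and Itm2b (r = 0.960). Tgfbi, an extracellular matrix protein gene induced by TGF-β, averaged 84.7 ± 22.9 FPKM in Hevin, 19.1 ± 3.23 in LPS and 19.2 ± 2.85 in Media. For Cpd they were Spata13 (r = 0.988), Il17ra (r = 0.961) and Tgm2 (r = 0.960), and Spata13 averaged 20.2 ± 2.14 FPKM in Hevin, 11.98 ± 1.51 in LPS and 4.38 ± 0.274 in Media. For Irg1 they were Mmp14 (r = 0.996), Ezr (r = 0.996) and Gbp5 (r = 0.995). Gbp5, an interferon-inducible GTPase gene, averaged 5.12 ± 2.89 FPKM in Hevin, 175 ± 62.1 in LPS and 5.36 ± 2.41 in Media. For Nos2 they were Sprr2d (r = 0.987), C130026I21Rik (r = 0.978) and Aoah (r = 0.971). Aoah, whose enzyme removes acyl chains from LPS, averaged 6.29 ± 1.70 FPKM in Hevin, 18.1 ± 6.56 in LPS and 6.56 ± 1.36 in Media.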

How the data were processed

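RNA-seq was analysed from 12 libraries, grouped and numbered by their titles. Values were in FPKM, which the authors deposited for 14541 gene symbols. The labels' protocols give 100 ng of RNA, a stranded poly(A) kit and pairs of 100 bp reads. Build mm10 is named in the submitters' processing notes, with Bowtie2 2.3.5.1, Subread 1.6.3 and featureCounts, edgeR 3.30.3 in R 4.0.0, Trimmomatic 0.39 and FastQC 0.11.7, in no stated order or role. Annotation, row filter and strand use were not given in the sources used here. No column of another sample was used.

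Whole reads were recovered in 14541 of 14541 rows (100%, within 0.1 of a whole read), which gave the depth. The 11242 genes that reached 1 FPKM in 4 or more libraries were fitted by limma (version 3.58.1, R 4.3.3) as log2(FPKM + 1), pseudocount 1, with a mean-variance trend, all 3 groups together and no block. Two-sided p-values were adjusted by Benjamini-Hochberg over all tested genes, and called means an adjusted p under 0.05. The fit was tested on simulated data.

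Same-numbered libraries deviated together in 12 of 12 pairs (r of 0.230 to 0.784), and the column names join them. The correlations did not set number 4 apart from number 3. The LPS library numbered 4 had r of 0.230 with Media number 4 and 0.528 with Media number 3. The Hevin library numbered 4 had r of 0.392 with LPS number 4 and 0.436 with LPS number 3. For number 4 the pairing thus rests on the column names. Blocked values are printed mainly for changed calls and for counts moved by over 1.5 times. Some are also printed where counts moved less or the call was kept.

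The members and lists were chosen with earlier results of these data known. Named genes were the members, up to 3 called genes per pathway list and comparison with the largest absolute log2 fold change, and for 4 members the 3 tested genes most correlated with each. Some of these are not named in the text. Alternatives were pseudocounts of 0.1 and 5, no filter or 5 FPKM, quantile normalization, upper quartile scaling, no trend, only both groups compared, the block, log2 fold changes of at least 1 in size, leaving out each library or all numbered 2, and limma-voom on recovered reads with and without the block. Values set back to library totals of recovered reads were chosen after seeing the data. GENCODE M21 (GRCm38) gave the positions of genes. Figures were drawn with matplotlib 3.10.9.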

Additional observations from a re-analysis of the deposited data

Results flagged for a closer look

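In 27 sets of 4 libraries (9 genes in 3 groups), 3 had 1 library far from the other 3, where chance gives about 1 in 20. Arg1 in Media had its highest value, 1.03 FPKM, in the library numbered 4, against 0.489 to 0.563 FPKM in the other 3. Arg2 in Hevin had its lowest value, 3.33 FPKM, in the library numbered 1, against 4.43 to 4.61 FPKM in the other 3. Sat1 in Media had its highest value, 204 FPKM, in the library numbered 2, against 188 to 191 FPKM in the other 3.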

How the results depend on the processing

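Of the log2 fold changes of the 8 tested members over all alternatives, 568 kept their direction and side of the threshold, 19 gained a call, 1 lost it and 9 turned in direction. For pathway genes 840 kept both, 77 lost their call and 5 turned. The causes were not tested. Direction turned only for differences near 0 or under rescaling. On leaving out each library in turn, Irg1 in Hevin against Media ran between -0.22 and 0.28, and Arg1 in LPS against Media between -0.18 and 0.015. In LPS against Media, quantile normalization gave -0.18 for Sat1 and -0.48 for Slc3a2, and values without scaling factors gave -0.059 and -0.042. In Hevin against LPS, quantile normalization gave 0.14 for Sat1, 0.43 for Slc3a2 and 0.051 for Eif5a, and values without scaling factors gave 0.060 for Eif5a.

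With the replicate block, counts of called genes, higher and lower, were 1210 and 1196 over all genes, 4 and 1 for members and 8 and 7 for pathway genes in Hevin against Media. In LPS against Media they were 2416 and 2498 over all genes and 9 and 17 for pathway genes, and in Hevin against LPS 13 pathway genes were lower. The block moved no other of these counts by over 1.5 times, and its moves of single pathway lists by over 1.5 times stand beside their counts. Limma-voom with the block gave 1363 and 1366 over all genes, 4 and 1 for members and 9 lower pathway genes in Hevin against Media. It gave 2438 and 2519 over all genes and 9 higher pathway genes in LPS against Media, and 14 lower pathway genes in Hevin against LPS.

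Without scaling factors, LPS against Media gave 728 and 5007 over all genes and 0 and 36 for pathway genes, and Hevin against LPS 5440 and 963, and 38 and 1. A minimum log2 fold change of 1 left 130 and 55 over all genes and 1 and 0 pathway genes in Hevin against Media, 482 and 119, and 0 and 0, in LPS against Media, and 372 and 582, and 1 and 0, in Hevin against LPS, with 1 member higher. In Hevin against LPS the 5 FPKM filter, which Arg1 fails, left 1604 higher genes and 1 member higher. Higher pathway genes there were 23 under quantile normalization. Lower ones were 4 under quantile or upper quartile scaling and 5 with only both groups or without the libraries numbered 2. Upper quartile scaling left 2 higher pathway genes in LPS against Media.

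Leaving out each library in turn gave, in Hevin against Media, 308 to 541 higher and 203 to 389 lower over all genes, and 0 to 1 members lower. In LPS against Media pathway counts were 2 to 6 higher and 6 to 11 lower, and in Hevin against LPS 5 to 7 lower. Arg1 in LPS and Media and Nos2 in Hevin and Media rest on few reads, which limits their folds.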
